A study of Mus musculus with 4 samples.

Results

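The 32 genes described here lie on both sides of Stk40 on mouse chromosome 4 and were chosen by symbol and position. The choice was made with earlier results of these data known, and it leaves out 11 protein-coding genes of the same interval. The 32 genes were taken from 51826 genes with deposited values, and all 32 were present (Utp11l under its newer symbol Utp11). Stk40 itself, a gene for a pseudokinase, is not among them. RNA was sequenced from mouse embryonic stem cells of C57BL/6 strain background that had been driven towards mesoderm and collected on day 3. All cells, controls included, received BMP4 at 10 ng/ml for the first 2 days and then, for 1 day, 1 uM of CHIR99021, which inhibits GSK3, in 0.5% DMSO. The 2 groups were wild-type cells (2 libraries) and Stk40-/- cells (2 libraries). The labels do not say how the Stk40 allele was built, whether each genotype was 1 line or clone, or whether libraries came from separate cultures, and p-values here reflect nothing beyond the spread among 4 libraries, which may be technical. The cells had been kept on feeder fibroblasts and were moved off them before differentiation.

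Neighbouring genes can share regulatory DNA, and a promoter removed or inserted at one locus can alter genes beside it. For that reason the genes flanking a deleted gene are routinely examined beside it. The genes around Stk40 have no common function: they include 3 Argonaute genes, 3 MYM-type zinc finger genes, RNA-binding and nucleolar factors, cilium genes, and receptors of blood and nerve cells. The comparison asks whether any of them differed between Stk40-/- and wild-type cells.

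The interval from Utp11 to Zmym6 covers 2.45 Mb (GRCm38 chromosome 4, 124678160 to 127124372). Along the chromosome, 15 listed genes start before Stk40 and 17 after it. Stk40 (ENSMUSG00000042608.15, plus strand, 126103957 to 126141029) has Lsm10 as its nearest coding neighbour on one side, 5372 bases before its start. Eva1b is the nearest on the other side, 6714 bases after its end. The promoters of Stk40 and these 2 neighbours are shown because they are the closest to the deleted gene, and that of Sfpq because this gene had the smallest p-value among the listed genes. Each run covers 250 bases before to 50 bases after the start in RefSeq (GRCm38.p6), and capitals mark matches to 6 short motifs on either strand.

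Stk40, chr4:126103707-126104006, plus strand: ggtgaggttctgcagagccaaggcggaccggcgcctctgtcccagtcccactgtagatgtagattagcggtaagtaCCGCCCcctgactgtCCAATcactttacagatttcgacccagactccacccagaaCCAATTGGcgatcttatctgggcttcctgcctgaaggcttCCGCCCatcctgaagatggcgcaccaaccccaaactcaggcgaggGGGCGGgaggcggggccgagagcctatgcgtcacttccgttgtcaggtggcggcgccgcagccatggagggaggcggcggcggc
Lsm10, chr4:126096403-126096702, plus strand: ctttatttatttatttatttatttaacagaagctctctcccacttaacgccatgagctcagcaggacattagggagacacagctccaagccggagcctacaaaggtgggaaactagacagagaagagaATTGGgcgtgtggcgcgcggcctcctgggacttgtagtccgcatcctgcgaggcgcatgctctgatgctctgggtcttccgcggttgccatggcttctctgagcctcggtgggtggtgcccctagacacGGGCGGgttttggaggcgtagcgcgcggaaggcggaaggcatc
Eva1b, chr4:126147753-126148052, plus strand: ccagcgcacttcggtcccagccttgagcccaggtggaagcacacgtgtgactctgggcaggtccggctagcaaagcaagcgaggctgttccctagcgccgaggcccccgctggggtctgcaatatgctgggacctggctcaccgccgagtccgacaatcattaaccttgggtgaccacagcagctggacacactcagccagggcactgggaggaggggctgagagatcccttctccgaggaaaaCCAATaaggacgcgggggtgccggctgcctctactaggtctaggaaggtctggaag
Sfpq, chr4:127021051-127021350, plus strand: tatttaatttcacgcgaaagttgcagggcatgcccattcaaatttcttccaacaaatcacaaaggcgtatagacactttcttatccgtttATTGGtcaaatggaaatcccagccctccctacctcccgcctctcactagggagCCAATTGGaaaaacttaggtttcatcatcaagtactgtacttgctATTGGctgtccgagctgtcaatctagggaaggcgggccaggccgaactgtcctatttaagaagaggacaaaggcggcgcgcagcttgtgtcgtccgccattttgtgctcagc

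The motifs searched were TGANTCA for AP-1, TGACGTCA for CRE, CCAAT for NF-Y, CCGGAAG for ETS, GGGCGG for Sp1 and TATAAA for the TATA box. The CCAAT letters on both strands can overlap, as they do in CCAATTGG of the Stk40 promoter. Of the 32 listed genes, 29 had a promoter in the RefSeq table; Gnl2, Utp11 and Zmym1 did not. The Sp1 letters occurred in 19 of 29 (65.52%), against 35.66% of all 32851 promoters of the same length. The CCAAT letters occurred in 12 of 29 (41.38%, against 37.41%), the ETS letters in 5 (17.24%, against 8.86%) and the AP-1 letters in 2, those of Thrap3 and Trappc3 (6.90%, against 7.81%). The TATA letters were found in 1 (Sh3d21; 3.45%, against 13.62%) and the CRE letters in 0 (against 1.79%). These promoters were rich in CpG: the median observed to expected ratio was 0.839, against 0.384 over all promoters, and 24 of 29 lay above 0.6. The 5 at or below that value were Inpp5b, Eva1b, Zmym4, Csf3r (0.326), the granulocyte growth factor receptor, and Sh3d21 (0.247). The 2 sets of promoters are unlike. The listed genes are all protein-coding, and 25 of the 29 averaged 1 TPM or more, while the 32851 promoters were not limited by gene type or level. The differences in CpG and in motif letters, those of Sp1 included, therefore cannot be read as traits of this interval.

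Stk40 was at 28.9 and 39.9 TPM (a level scaled for transcript length and for the library's total) in the wild-type pair against 3.54 and 3.17 TPM in the Stk40-/- pair. The mean of the Stk40-/- libraries was 9.75% of the wild-type mean, and the groups were far apart. Every fold change here is a difference of log2(TPM + 1), a measure that makes changes of weakly expressed genes look smaller than they are. For Stk40 it was -3.01 (SE 0.21, 95% interval -3.58 to -2.43). It did not pass limma's adjusted p of 0.05 over all genes tested (adjusted p = 0.139).

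No tested flanking gene differed by as much as Stk40. The test took genes averaging 1 TPM or more over the 4 libraries, which left 28 of the 32 members among 15739 genes in all. In limma 0 of the 28 had an adjusted p under 0.05, and so did 0 of all 15739 (0%). At an unadjusted p under 0.05 there were 2 of 28 members, Sfpq and Yrdc, against 11.0% of all tested genes. The member fold changes ran from -0.72 (Inpp5b) to 0.58 (Ago3) with a median of 0.10, and the median of all tested genes was 0.07. Positive values were found in 17 and negative values in 11; over all tested genes 41.4% were negative. A difference of 2-fold or more on this scale was found in 0 of the 28 members, all of them protein-coding, against 2.90% of tested protein-coding genes and 8.54% of all tested genes. No member's 95% interval reached the fold change of Stk40, and the lowest bound was -2.09, for Inpp5b. In 22 of 28 the whole interval lay within 2-fold either way, and in the other 6 (Inpp5b, Maneal, Oscp1, Sh3d21, Tekt2 and Ago3) it reached past 2-fold. All of these but Inpp5b averaged under 5 TPM.

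The groups were apart, with the Stk40-/- pair wholly higher, in 8 of the 28 members, against 27.5% of all tested genes. The Stk40-/- pair was wholly lower in 3, against 16.6%. Centred on the median of all genes, the members split 7 higher and 5 lower, against 20.2% and 23.9% of all tested genes, and 0 members had an unadjusted p under 0.05. Without centring, 39.3% of members had separate groups, against 44.0% of all tested genes and 46.9% of tested protein-coding genes. In 7 members (25%) the genotype difference was larger than the difference within either pair of replicates. That share was 31.2% for all tested genes and 33.4% for tested protein-coding genes. The depth of each library is unknown from TPM, so no counting error can be given. The labels name 2 sequencing instruments without saying which library was read on which, so the part of the instrument was not tested.

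**Figure D1:**
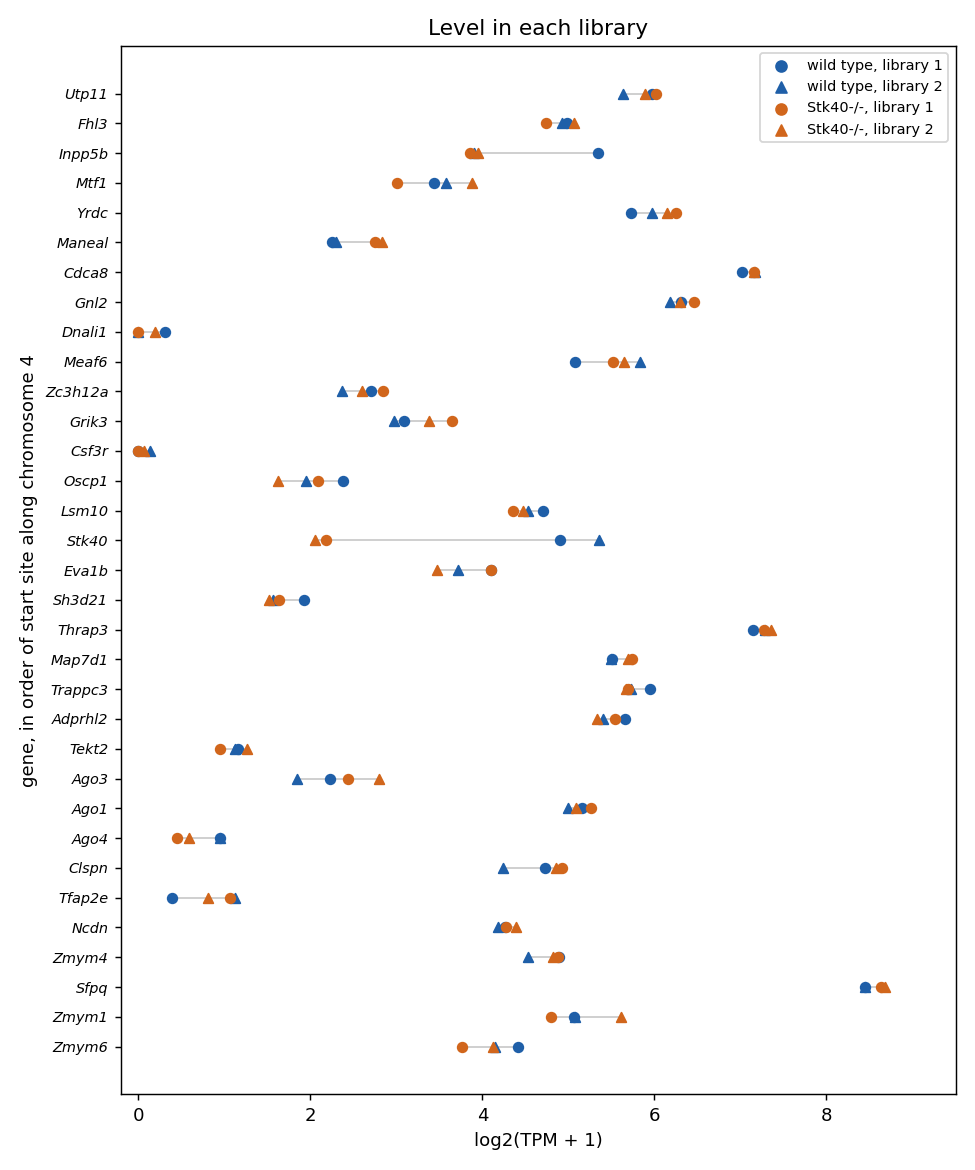
Level of each listed gene and of Stk40 in each of the 4 libraries, as log2(TPM + 1), with genes in order of start site along chromosome 4; circles are library 1 and triangles library 2. The genotypes are widely separated at Stk40 (28.9 and 39.9 TPM against 3.54 and 3.17 TPM) and lie close together or mixed at the other genes.

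**Figure D2:**
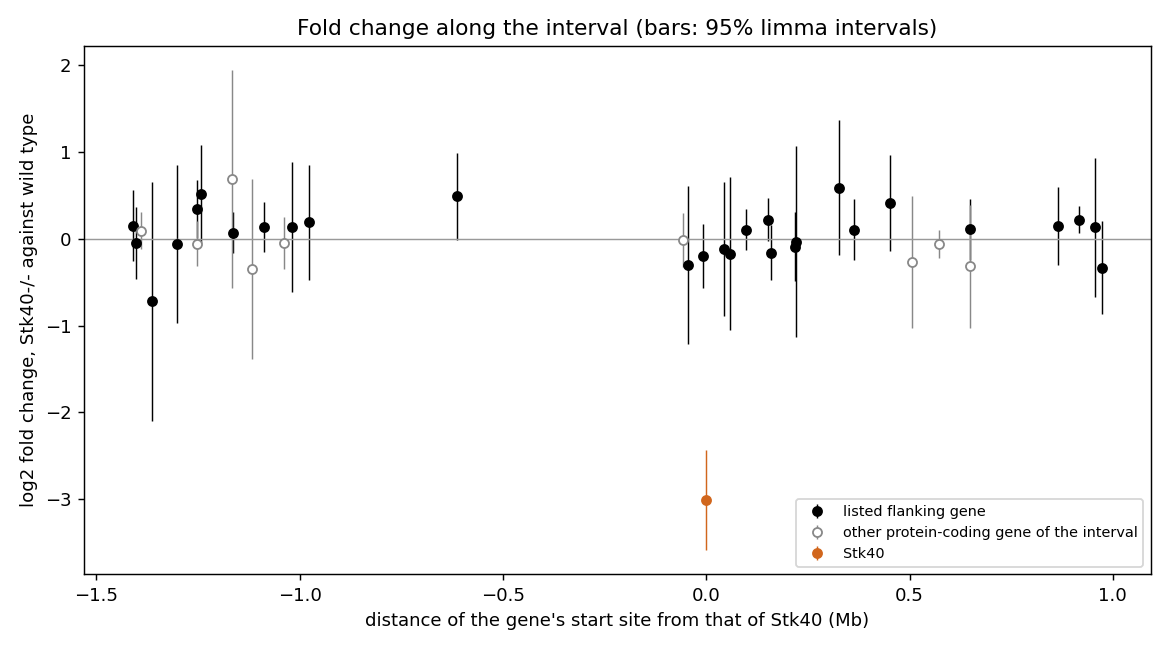
Log2 fold change of Stk40-/- against wild type by distance of the start site from that of Stk40 in Mb, with 95% limma intervals; filled points are listed genes, open points other protein-coding genes of the interval. Stk40 lies at -3.01, and every listed gene tested lies between -0.72 and 0.58.

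The immediate neighbours of Stk40 were examined first. Lsm10 encodes an Sm-like protein of the U7 snRNP, which trims the ends of replication-dependent histone mRNAs. It stood at 25.0 and 22.1 TPM in the wild-type pair against 19.5 and 21.2 TPM in the Stk40-/- pair. The groups were apart by a small margin, with a Stk40-/- mean at 86.5% of wild type. The log2 fold change was -0.20 (SE 0.14, interval -0.56 to 0.17, limma adjusted p = 0.636), and with 1 library left out at a time it ran from -0.29 to -0.11. Eva1b, on the other side, stood at 16.1 and 12.1 TPM in the wild-type pair against 16.2 and 10.1 TPM in the Stk40-/- pair. Its groups overlapped fully, and the spread within each genotype was larger than the difference between them (log2 fold change -0.12, SE 0.28, interval -0.89 to 0.65).

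Further out but still within 0.1 Mb were 4 more members. Oscp1, named as a partner of organic solute carriers, stood at 4.19 and 2.86 TPM in the wild-type pair against 3.26 and 2.08 TPM in the Stk40-/- pair, and the groups overlapped (-0.30, SE 0.33). Sh3d21, an SH3 domain gene, was at 2.81 and 1.97 TPM and at 2.10 and 1.88 TPM in the same order, again with overlap (-0.17, SE 0.33). Thrap3, a nuclear RNA-processing factor, stood at 140.2 and 154 TPM in the wild-type pair against 154 and 162.5 TPM in the Stk40-/- pair (log2 fold change 0.10, SE 0.09). Thrap3 was the best measured of these genes, with an interval from -0.13 to 0.34. Csf3r was listed at 0 and 0.0982 TPM in the wild-type pair against 0 and 0.0485 TPM in the Stk40-/- pair, under the limit for testing in both genotypes.

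The 5 tested members within 0.1 Mb had a median log2 fold change of -0.17. It was 0.10 for the 7 tested members from 0.1 to 0.5 Mb and 0.13 for the 16 beyond 0.5 Mb. Oscp1, Lsm10, Eva1b and Sh3d21, the tested members nearest to Stk40, all had negative values, and each interval included 0. Thrap3, the remaining tested member within 0.1 Mb, was positive (0.10), and over all tested genes 41.4% were negative. Without wild-type library 1 the values of Eva1b (0.08) and Sh3d21 (0.01) were positive, and without Stk40-/- library 2 that of Eva1b was 0.20. Mrps15, a mitochondrial ribosomal protein gene that starts between Csf3r and Oscp1 and is not listed, stood at 92.2 and 79.7 TPM in the wild-type pair against 88.7 and 80.7 TPM in the Stk40-/- pair (-0.02, SE 0.12). It is the only other coding gene to start within 150 kb of Stk40.

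Among genes of small RNA silencing, Ago1, Ago3 and Ago4 encode Argonaute proteins, which bind microRNAs and repress the matching mRNAs. Ago1 was the most abundant, at 34.7 and 31.0 TPM in the wild-type pair against 37.5 and 33.1 TPM in the Stk40-/- pair, with overlap (log2 fold change 0.10, SE 0.13). Ago3 stood at 3.68 and 2.59 TPM in the wild-type pair against 4.41 and 5.97 TPM in the Stk40-/- pair. The Ago3 groups were apart, and its value, 0.58 (SE 0.29, interval -0.19 to 1.36, limma adjusted p = 0.531), was the largest positive one among the members. Ago4 had 0.925 and 0.935 TPM in the wild-type pair against 0.366 and 0.504 TPM in the Stk40-/- pair, lower in the latter but under the limit for testing. Argonaute genes resemble each other in sequence, so that the division of reads among them by the authors' software adds uncertainty to each. Ago2, the paralog that can cut its targets and that lies elsewhere, was at 26.9 and 33.5 TPM against 41.2 and 40.4 TPM (log2 fold change 0.43, SE 0.14). Of 12 tested partners in microRNA processing, 0 passed limma, 7 had higher and 1 lower separate groups (27.5% and 16.6% of all tested genes), and the median was 0.15, against 0.07 for all tested genes.

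RNA-binding, nucleolar and RNA-modifying genes included the most abundant member. Sfpq, a splicing factor and core paraspeckle protein, stood at 348 and 347 TPM in the wild-type pair against 397 and 411 TPM in the Stk40-/- pair. The replicates of Sfpq lay very close together and the genotypes apart, with a Stk40-/- mean at 116% of wild type (log2 fold change 0.22, SE 0.06, interval 0.06 to 0.37). Its limma p was 0.0178 before and 0.401 after adjustment over all genes, and the value stayed between 0.19 and 0.24 with 1 library left out. Yrdc, whose product makes the t6A modification of tRNA, stood at 52.2 and 62.0 TPM in the wild-type pair against 75.3 and 69.8 TPM in the Stk40-/- pair. Its groups were apart too (0.34, SE 0.12, interval 0.01 to 0.68, limma adjusted p = 0.447). The intervals of Sfpq and Yrdc are the only 2 of 28 that leave out 0. Utp11 and Gnl2, which act in the assembly of the small and large ribosomal subunits, had overlapping groups (0.15, SE 0.15, and 0.14, SE 0.11).

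The partners of these proteins encoded elsewhere were described from lists by function. Of 7 paraspeckle genes, 6 had positive values, and the largest difference with separate groups was that of Rbm14 (64.4 and 61.6 TPM against 74.3 and 66.6 TPM). Of 13 small-subunit and nucleolar genes 10 were positive, with a median of 0.02, and Ncl, the nucleolin gene, was at 717 and 566 TPM against 889 and 843 TPM. Of 4 tested genes of the KEOPS complex, which works with Yrdc on tRNA, 2 were positive and 2 negative. None of these genes passed limma. The U7 snRNP and histone mRNA list of Lsm10 went both ways (13 tested, 8 positive, 5 negative, median 0.04): Slbp, the histone stem-loop binding protein gene, was at 149 and 139 TPM against 169.5 and 176 TPM, and Snrpg at 84.5 and 90.9 TPM against 74.4 and 69.5 TPM.

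Genes of replication, mitosis and chromatin came next. Clspn encodes claspin, the adaptor through which ATR activates CHK1 at stalled forks. It stood at 25.5 and 17.8 TPM in the wild-type pair against 29.5 and 27.98 TPM in the Stk40-/- pair, with separate groups, but the wild-type libraries differed from each other by more than the genotypes did (log2 fold change 0.41, SE 0.20, limma adjusted p = 0.532). The value ran from 0.16 without wild-type library 2 to 0.66 without library 1. All 9 tested genes of fork protection and the ATR checkpoint had positive values as well (41.4% of all tested genes were negative), with a median of 0.32, and 0 passed limma. Groups were apart in 7 of them, all higher, against 27.5% of all tested genes. One of them, Chek1, was at 35.6 and 26.4 TPM against 51.7 and 42.6 TPM. Cdca8, which encodes borealin of the chromosomal passenger complex, stood at 128 and 143 TPM in the wild-type pair against 142 and 141 TPM in the Stk40-/- pair, with an interval from -0.17 to 0.30.

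Meaf6, a subunit of NuA4 and MYST histone acetyltransferase complexes, stood at 32.8 and 55.9 TPM in the wild-type pair against 45.0 and 49.3 TPM in the Stk40-/- pair. Both Stk40-/- values lay between the wild-type ones (0.13, SE 0.28). Of the 11 tested partners of Meaf6, 10 had positive values (median 0.19), with Ing3 at 19.9 and 11.9 TPM against 34.6 and 25.9 TPM. The MYM-type zinc finger genes Zmym4, Zmym1 and Zmym6, which stand close together at the far end, differed in pattern. Zmym6 stood at 20.3 and 16.6 TPM in the wild-type pair against 12.6 and 16.4 TPM in the Stk40-/- pair, with groups barely apart (-0.33, SE 0.20, limma adjusted p = 0.590). Zmym1 stood at 32.6 and 32.8 TPM in the wild-type pair but at 26.8 and 47.8 TPM in the Stk40-/- pair, values on either side of wild type (0.13, SE 0.29). Zmym4 had overlapping groups (0.14, SE 0.17). These 3 genes resemble each other in sequence as well, with the same limit on their levels.

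Trafficking, cytoskeletal and metabolic genes included a few of the most even pairs. Map7d1, of the MAP7 family of microtubule-binding proteins, stood at 44.5 and 44.2 TPM in the wild-type pair against 52.4 and 50.9 TPM in the Stk40-/- pair. Its groups were apart by more than the replicates differed (log2 fold change 0.22, SE 0.09, interval -0.03 to 0.46, limma adjusted p = 0.491), with 0.20 to 0.24 when 1 library was left out. Maneal, related to an endomannosidase of the Golgi, stood at 3.77 and 3.92 TPM in the wild-type pair against 5.71 and 6.12 TPM in the Stk40-/- pair (0.51, SE 0.21, interval -0.05 to 1.07, limma adjusted p = 0.481). The Stk40-/- mean of Maneal was 154% of the wild-type mean. Trappc3, a core subunit of the TRAPP vesicle tethering complex, stood at 61.0 and 52.0 TPM in the wild-type pair against 50.6 and 49.9 TPM in the Stk40-/- pair. Its groups were apart in the other direction (-0.16, SE 0.12), by less than the wild-type libraries differed. Adprhl2, which removes ADP-ribose from proteins, had overlapping groups (-0.09, SE 0.15).

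Inpp5b, an inositol polyphosphate 5-phosphatase gene, had the largest difference in size, and it rested on 1 library. It stood at 39.6 and 13.9 TPM in the wild-type pair against 13.5 and 14.4 TPM in the Stk40-/- pair. Wild-type library 1 stood alone and the other 3 libraries lay together. The log2 fold change was -0.72 (SE 0.51, interval -2.09 to 0.66), and without wild-type library 1 it was 0.004. Mtf1, the metal-responsive transcription factor gene next to it, stood at 9.82 and 10.9 TPM in the wild-type pair against 7.05 and 13.7 TPM in the Stk40-/- pair (-0.06, SE 0.34). Here the Stk40-/- libraries enclosed the wild-type ones.

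Genes of neural, muscle, blood and cilium biology included the least abundant members. Grik3, a kainate-type glutamate receptor subunit gene, was the best expressed receptor, at 7.505 and 6.86 TPM in the wild-type pair against 11.5 and 9.45 TPM in the Stk40-/- pair. The groups were apart (0.48, SE 0.19, interval -0.02 to 0.99, limma adjusted p = 0.462), with a Stk40-/- mean at 146% of wild type. Of 6 tested genes from the list of kainate and cytokine receptor signalling, 2 were positive, and Grik5, the one with separate groups, was at 18.8 and 20.1 TPM against 25.9 and 22.4 TPM. Ncdn, the neurochondrin gene, stood at 18.2 and 17.1 TPM in the wild-type pair against 18.3 and 19.9 TPM in the Stk40-/- pair, with groups barely apart (0.11, SE 0.13). Fhl3, a LIM-domain gene of muscle, and Zc3h12a, an RNase that degrades inflammatory mRNAs, had overlapping groups (-0.05, SE 0.15, and 0.19, SE 0.24).

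The cilium genes Tekt2 and Dnali1 were scarcely detected. Tekt2, a tektin of axonemal microtubules, had a mean of 1.18 TPM (log2 fold change -0.04, SE 0.41). Dnali1, an axonemal dynein light intermediate chain gene, was listed at 0.245 and 0 TPM in the wild-type pair against 0 and 0.149 TPM in the Stk40-/- pair. Tfap2e, an AP-2 family transcription factor gene, stood at 0.313 and 1.18 TPM in the wild-type pair against 1.09 and 0.753 TPM in the Stk40-/- pair. Csf3r, Dnali1, Ago4 and Tfap2e are the 4 members left out of the test, and Ago4 is the only one of these whose groups did not overlap.

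The partners of the remaining members, again from lists by function, gave 0 genes past limma. The chromosomal passenger complex list of Cdca8 had 5 positive values of 6, among them the mitotic kinase genes Plk1 (128 and 124 TPM against 159 and 145 TPM) and Aurkb (107 and 103 TPM against 134 and 118 TPM). The list of Thrap3, which holds Mediator genes and also Bclaf1, Srsf1 and Snrnp70, had 8 positive of 9, with a median of 0.23. The TRAPP list of Trappc3 went both ways, with 8 positive and 5 negative. Trappc6b was higher in the Stk40-/- pair (52.7 and 45.8 TPM against 53.7 and 82.4 TPM), and Trappc1 was lower (129.98 and 131 TPM against 112 and 102 TPM). Values were positive in 3 of 6 metal response genes, 5 of 7 genes of inflammatory mRNA decay, 4 of 8 inositol phosphatase genes and 5 of 8 ADP-ribose genes. In the last of these lists Adprh, a relative of Adprhl2, stood at 95.2 and 93.6 TPM against 66.5 and 66.4 TPM, with close replicates. Adprh lies on chromosome 16, where the median over 463 tested genes was -0.17 and 325 were negative, the only chromosome of 20 with a negative median. The part of that shift in the value of Adprh was not tested. Both tested LIM-only genes were negative, with Fhl2 at 9.56 and 6.77 TPM against 3.65 and 4.91 TPM. The MYM zinc finger list had 5 positive of 6, and its partner Hdac1 is the exception. All 3 tested cilium genes and the 1 tested AP-2 gene were positive.

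**Figure D3:**
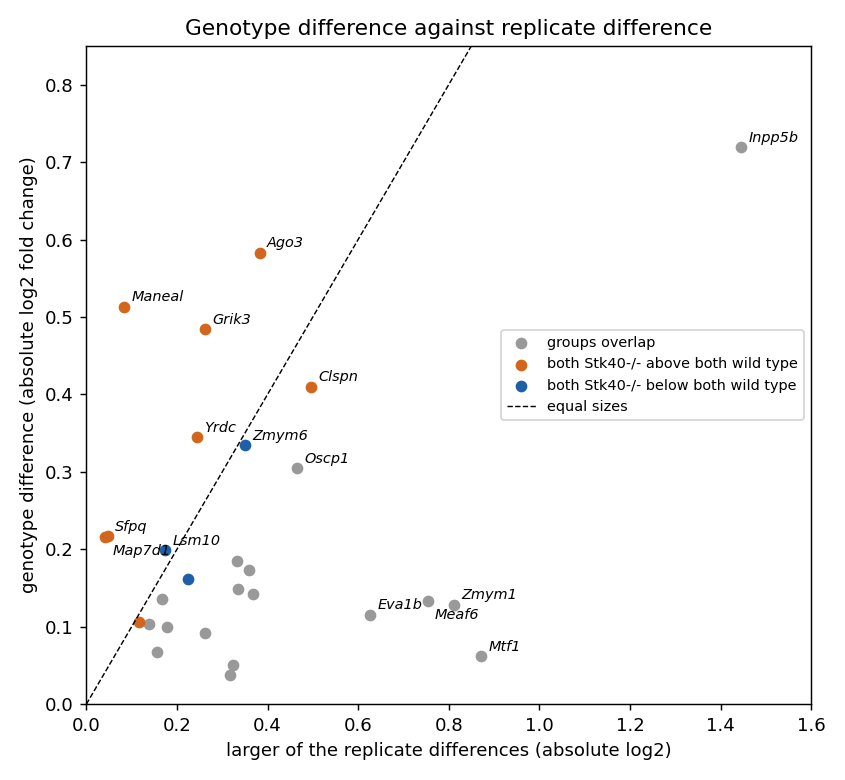
Size of the log2 fold change between genotypes (vertical) against the larger of the log2 differences within a genotype (horizontal) for the 28 tested members, coloured by whether the groups overlap. Of these, 7 lie above the dashed line of equal sizes, Inpp5b lies far to the right because its wild-type libraries differed by 1.45, and Maneal, Ago3 and Grik3 stand highest above the line.

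In level, the members spanned the range of the transcriptome. Of the 32, 17 had a mean of at least 20 TPM, 11 lay between 1 and 20 TPM and 4 below 1 TPM. Sfpq was the highest (mean 376 TPM), followed by Thrap3 (153 TPM) and Cdca8 (139 TPM). This order held within every library, although the ranges of Thrap3 and Cdca8 across libraries overlapped. Gnl2 (78.7 TPM), Yrdc (64.8 TPM), Utp11 (58.1 TPM) and Trappc3 (53.4 TPM) followed, with overlapping ranges between neighbours. The order of the top 3 was the same in both genotypes by group mean. Among the 7 members above 50 TPM the median size of the log2 difference was 0.15, against 0.14 for all tested genes of that level. Among the 10 from 20 to 50 TPM it was 0.14, against 0.17.

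**Figure D4:**
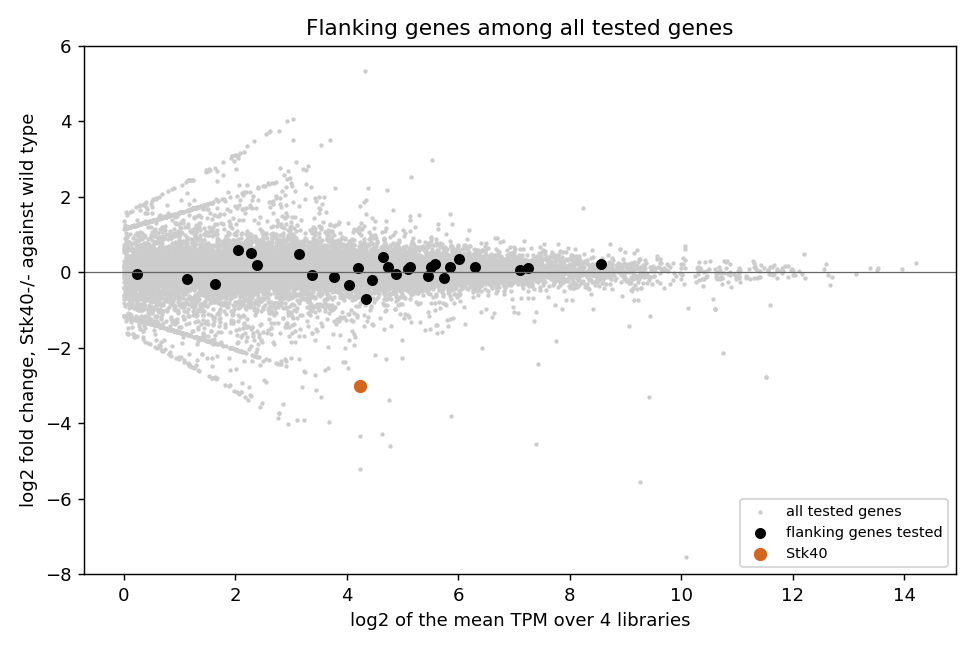
Log2 fold change against the log2 of the mean TPM for all 15739 tested genes (grey), the 28 tested flanking genes (black) and Stk40 (orange). The black points lie inside the grey cloud at every level, and Stk40 lies at -3.01.

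The listed genes are not all genes of the interval. Another 11 protein-coding genes lie between Utp11 and Zmym6, of which 9 were tested, with a median of -0.06, 2 positive and 7 negative values, and 0 passing limma. Their values ran from -0.35 (Rspo1) to 0.69 (9930104L06Rik). For listed and unlisted coding genes together (37 tested) the median was 0.07, with 19 positive and 18 negative. On chromosome 4 outside the interval 988 genes were tested, with a median of 0.06. Groups were apart in 43.5% of them.

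Shared exons limit a few of these values, since the labels do not say whether the libraries kept the strand. By the GENCODE annotation 12 of the 32 members share exonic bases with another gene. Zmym1 shares 1709 bases (41.0% of its exonic bases) with Gm12940 on the opposite strand, a noncoding transcript at 522 and 419 TPM in the wild-type pair against 726 and 623 TPM in the Stk40-/- pair. Gm12940 also shares 216 bases with Sfpq on the same strand, so the levels of these 3 genes are not fully separate measurements. Yrdc shares 488 bases (24.6%) with 1110065P20Rik on the opposite strand, which stood at 39.6 and 40.6 TPM in the wild-type pair against 38.8 and 38.1 TPM in the Stk40-/- pair. Yrdc and Maneal, both with separate groups in the same direction, meet tail to tail and share 4 bases. Zmym6 shares 682 bases (8.87%) with the protein-coding gene Tmem35b on the same strand, where keeping the strand would not separate them. On opposite strands, Tekt2 shares 396 bases (20.8%) with Gm12945, and Mtf1 shares 721 bases (8.1%) with 1110065P20Rik.

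Markers of cell state were also compared, and 0 of them passed limma. Of 9 markers of the streak and mesoderm 5 were tested, and 4 had separate groups, lower in Stk40-/- cells, as had 16.6% of all tested genes, the share to set beside each marker count here. Their summed level was 635 to 1246 TPM in wild type and 265 to 414 TPM in Stk40-/- cells, mostly from T (brachyury), while Mesp1 was listed at 0 in 3 libraries and Kdr and Pdgfra stayed under 1 TPM in all 4. The summed levels of 7 feeder fibroblast markers were 20.3 to 30.7 TPM and 16.3 to 19.8 TPM, in wild type and Stk40-/- cells respectively, with 3 of 4 tested lower. For 5 extraembryonic endoderm markers they were 4.20 to 6.54 TPM and 3.61 to 5.80 TPM, with 0 of 2 tested apart. For 5 trophoblast markers they were 18.6 to 24.2 TPM and 6.31 to 13.4 TPM, with 1 of 3 tested lower. That gene was Cdx2 (11.1 and 9.03 TPM in the wild-type pair against 1.46 and 0.904 TPM in the Stk40-/- pair). Hand1 and Krt7 had overlapping groups, and Gata3 and Elf5 were under the limit for testing, so the lower sum does not stand for the list as a whole. In bulk samples fewer cells of a type and less RNA per cell cannot be told apart. Whether these differences in marker level had a part in the small differences at Sfpq, Yrdc, Clspn, Ago3, Grik3 or Maneal was not tested. Over all 19 partner lists, 144 genes outside the interval were tested, and 0 passed limma. Separate groups were higher in Stk40-/- cells in 61 (42.4%) and lower in 15 (10.4%), against 27.5% and 16.6% of all tested genes. The median was 0.12, against 0.07. These sets are unlike in level: the median mean level was 41.0 TPM for the partner genes and 13.3 TPM for all tested genes. Among all tested genes, groups were apart in 35.5% from 1 to 5 TPM and in 53.9% above 50 TPM. The same limit holds for the lists of microRNA processing and of the ATR checkpoint (medians of 43.4 and 39.1 TPM).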

How the data were processed

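RNA sequencing values of 4 mouse libraries were used, 2 wild type and 2 Stk40-/-, grouped by sample title. Per the file headers, the values the authors deposited are TPM for each gene. The submitters' processing notes name CASAVA 1.7 and Salmon 0.8.2 but no parameters. They list hg38 as the build, although the gene IDs are mouse, and the sources used here do not give the annotation. Positions came from GENCODE vM21 on GRCm38, where 51633 of 51826 IDs matched without the version. TPM holds no depth, and a few abundant RNAs can lower all other values of a library.

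Values were put on a log2(TPM + 1) scale, genes averaging under 1 TPM were left out, and the rest went into limma 3.58.1 (R 4.3.3; empirical Bayes, intensity trend, no replicate block, Benjamini-Hochberg over all 15739 genes, threshold 0.05). The code was tested on simulated data. An exact permutation test of 2 against 2 libraries cannot give a p below 0.333 and was not used. Groups are apart when both libraries of one lie above both of the other. The flanking genes, although defined by position, and the partner lists were chosen with earlier results of these data known, so each list as a whole is described by counts and medians, with no test of the list. All 32 members and Stk40 are named, and from each partner list at most 2 genes. These were taken from the 2 with the largest difference among genes averaging 5 TPM or more with separate groups. Where only 1 is named, it is not always the larger. Promoters came from RefSeq, taking the one nearest the GENCODE start. It was 2394 bases from that start for Cdca8, 445 for Mtf1, 259 for Eva1b, 150 for Sh3d21 and at most 109 for the rest.

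Alternatives were pseudocounts of 0.1 and 0.01, filters above 0 and at 5 TPM, rescaling without mitochondrial and ribosomal protein genes, centring on the median gene, no trend, a replicate block, and each library left out. There were 0 per-sample columns left unused.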

Additional observations from a re-analysis of the deposited data

How the results depend on the processing

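Under the 12 alternatives run, limma called 0 genes higher and 0 lower over all genes and 0 flanking genes. The smallest adjusted p of a flanking gene in any of them was 0.339. Stk40 kept its direction throughout, with adjusted p from 0.104 to 0.680. The median of the flanking genes was 0.10 in the main fit and ran from 0.02 (without wild-type library 2) to 0.11 (without Stk40-/- library 1). Against the median of all tested genes it lay 0.04 higher in the main fit. It lay lower without wild-type library 1 (-0.0012), without wild-type library 2 (-0.0321) and without Stk40-/- library 2 (-0.0037). Centring on the median of all genes, a shift of 0.07, gave 5 flanking genes with lower separate groups in place of 3. With 1 library left out, when separation is easier to reach (over all tested genes 40.05% to 44.19% higher and 26.73% to 31.97% lower), the flanking genes with separate groups numbered 11 to 13 higher and 6 to 8 lower. Of the 28 tested genes 16 kept their sign under each alternative that tested them (the filter at 5 TPM left out Ago3, Maneal and Oscp1), and 12 changed it when 1 library was left out. Their ranges of log2 fold change with 1 library left out were -0.24 to 0.51 for Meaf6, -0.0106 to 0.145 for Cdca8, -1.44 to 0.0035 for Inpp5b, -0.43 to 0.20 for Eva1b, -0.35 to 0.0065 for Sh3d21, -0.22 to 0.0395 for Adprhl2, -0.50 to 0.37 for Mtf1, -0.0188 to 0.32 for Utp11, -0.0426 to 0.33 for Zmym4, -0.21 to 0.11 for Fhl3, -0.20 to 0.12 for Tekt2 and -0.28 to 0.53 for Zmym1. Whether same-numbered libraries were paired is not known from the labels. The correlation of same-numbered deviations was 0.089 across tested genes, which cannot settle this, since each genotype gives only 1 difference per gene. With the replicate number as a block the median of the flanking genes was 0.10 and 0 genes were called. An unadjusted limma p under 0.05 was then found in 1 flanking gene in place of 2, and in 2118 of all tested genes in place of 1730. The cause of the sign changes was not tested. TPM without depth limits what can be said of the 4 genes below 1 TPM.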

Other observations

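Beyond the interval, genes with smaller p-values than any flanking gene were found on chromosome 4, in a window of 6 Mb on each side of the Stk40 start that was chosen after the values were seen. Of 147 tested genes there, Stk40 had the smallest limma p, and none passed after adjustment over all genes. Fabp3, a fatty acid binding protein gene 4.20 Mb beyond the Stk40 start, stood at 125 and 147 TPM in the wild-type pair against 59.6 and 59.2 TPM in the Stk40-/- pair (log2 fold change -1.18, SE 0.11, limma adjusted p = 0.165). Hdac1, a histone deacetylase gene 3.44 Mb beyond it and also in the MYM partner list, was at 174 and 170.1 TPM against 107 and 105 TPM (-0.69, SE 0.07, limma adjusted p = 0.196). Pou3f1, a POU transcription factor gene just outside the interval on the Utp11 side, was at 18.1 and 17.8 TPM against 32.6 and 33.6 TPM (0.85, SE 0.11, limma adjusted p = 0.265). Of the 120 protein-coding genes tested in this window, 19, Stk40 included, had an unadjusted limma p under 0.05, against 11.0% of all tested genes.

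Within the interval 7 noncoding genes were tested, with a median mean level of 3.17 TPM, against 13.3 TPM for all tested genes. Groups were apart in 5, all higher in Stk40-/- cells, against 27.5% of all tested genes. An unadjusted limma p under 0.05 was found in 4, against 11.0%, and 0 passed after adjustment. Among them, a pair of short features was listed at 0 in both wild-type libraries and above 0 in both Stk40-/- libraries. Mir697, annotated over 109 bases inside Sf3a3, was at 7.76 and 3.64 TPM in Stk40-/- cells. The pseudogene Gm12934, annotated over 343 bases inside Ago4, was at 5.59 and 2.70 TPM there. No fold is given against a group listed at 0. TPM holds no depth, so the number of reads behind the values of these short features is not known. The pseudogene Gm12941, which lies inside Gm12940, stood at 26.4 and 14.2 TPM in the wild-type pair against 44.0 and 43.7 TPM in the Stk40-/- pair. Gm12940 and Gm12941 are both among the 5 with separate groups, so these may not be 5 separate measurements.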
